A study of Rattus norvegicus with 3 samples.

Results

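The EphB receptors and their ephrin-B ligands were examined in cultured rat commissural neurons, spinal cord cells that send their axons across the ventral midline. The members were the table entries whose gene symbol is Ephb1, Ephb2, Ephb3, Ephb4, Ephb6, Efnb1, Efnb2 or Efnb3. All 8 symbols were found, with 1 entry each, among 26353 entries, giving 5 receptors and 3 ligands. The single group consisted of 3 libraries of polyadenylated RNA from commissural neurons, taken from rat embryos at embryonic day 13 and grown for 2 days in vitro. The labels give no strain, genotype, treatment or number of animals, and there was no control group, so each comparison is between genes of one library. Whether the libraries are from separate cultures is not stated in the labels, and the p-values then describe only how far these samples spread, which may be a technical spread.

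Eph receptors are receptor tyrosine kinases whose ligands, the ephrins, are also held on the cell surface, so that signalling takes place where cells touch. Ephrin-B proteins span the membrane and signal back into their own cell when bound (reverse signalling), while the receptor signals forward into the other cell. The system is known for steering axons near the ventral midline of the developing spinal cord and, in other tissues, for sorting cells at boundaries. EphB receptors bind mainly ephrin-B ligands, and Epha4 is the EphA receptor best known to bind ephrin-B ligands as well.

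Values are the authors' FPKM, a unit that scales fragments by transcript length and mapped total. How it was computed is not stated, so comparisons between genes per length take the deposited scaling as it stands. The depth of the libraries is not known from these values. Library 2 stood apart from libraries 1 and 3 in 3 of the 4 commissural axon genes, Robo3 (74.5 FPKM against 118 and 119), Dcc (48.1 against 68.0 and 71.6) and Cntn2 (33.4 against 44.2 and 46.4), but not in Boc (15.7 against 15.0 and 15.1), and results are therefore also given without it where that changes them. Markers of the labelled cell type were read. All 4 commissural axon markers (Robo3, Dcc, Cntn2 and Boc) and all 8 pan-neuronal markers lay above 1 FPKM in limma's test, described below. Of all tested entries 63.7% did so as well. The highest pan-neuronal marker was Tubb3 at 960 ± 70.2 FPKM (SD, n = 3). All 8 progenitor and all 5 proliferation markers also passed, and the cell source of each transcript is not known. In such bulk RNA, fewer cells of a type and less RNA per cell cannot be told apart.

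All 8 genes lay above 1 FPKM as deposited, over a wide range; with each library scaled to a sum of 1000000 over all entries, of which 62 very high ones hold most, only Efnb3, Ephb2 and Efnb2 passed the test against 1. Efnb3, the ligand known from the floor plate of the midline, was highest at 43.2 ± 3.62 FPKM (SD, n = 3), and Ephb4, a receptor known mainly from veins, was lowest at 2.54 ± 0.291 FPKM. In the one-sided limma test of each entry against 1 FPKM, with Benjamini-Hochberg adjustment over 17611 entries above 0 in at least 1 library, 63.7% of all entries passed, and the members' count of 8 of 8 is to be read against that share. The lowest of them, Ephb4, passed with an adjusted p of 3.7e-06 (limma, Benjamini-Hochberg). Ephb4 was nevertheless a middling transcript, above only 42.1% of the tested entries, whose median was 4.81 FPKM, whereas Efnb3 stood above 89.4% of them.

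**Figure D1:**
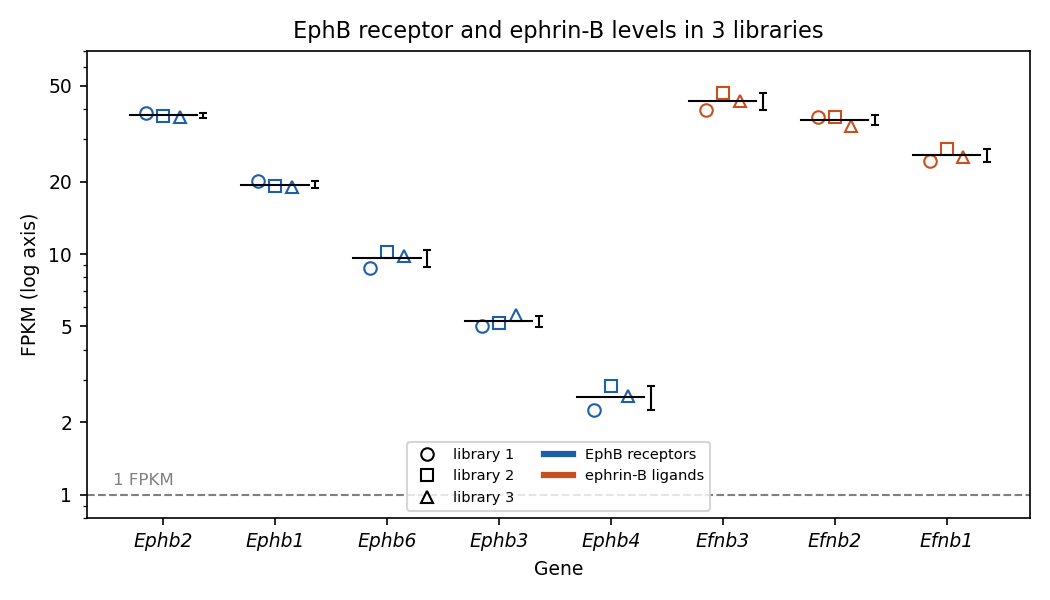
Level of each gene in FPKM on a log axis; circles, squares and triangles are libraries 1, 2 and 3, the horizontal line is their mean and the bar beside it is 1 SD. Among the receptors the libraries of one gene do not overlap with those of the next, from Ephb2 at 37.0 to 38.8 FPKM down to Ephb4 at 2.24 to 2.82 FPKM. The same held for 95.1% of all comparisons of a member with another tested entry. The 3 ligands lie between 24.3 and 46.8 FPKM.

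Ephb2 was the leading receptor. It is known for its part in commissure formation in the brain and in the assembly of excitatory synapses, where it binds NMDA receptors. Libraries 1, 2 and 3 gave 38.75, 37.62 and 36.96 FPKM, a mean of 37.8 ± 0.905 FPKM (SD, n = 3). The 3 libraries lay close together, with an SD of 0.03 on the log2(FPKM + 0.1) scale, and only 5.47% of the entries with a mean of at least 1 FPKM varied less. SDs on this scale are of values as deposited. In these the median entry was higher in library 2 by 0.13, which adds to the spread of other entries. Ephb2 alone made up 50.6% ± 0.963 (SD, n = 3) of the summed FPKM of the 5 EphB receptors.

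Ephb1, known for turning retinal axons away from the midline at the optic chiasm, came next. It had 20.14, 19.16 and 19.06 FPKM in libraries 1, 2 and 3, a mean of 19.5 ± 0.597 FPKM (SD, n = 3). No library of Ephb1 came near any library of Ephb2. Within the libraries Ephb2 exceeded Ephb1 by 1.94-fold (95% interval 1.73 to 2.17, higher in 3 of 3 libraries; adjusted p by limma with Benjamini-Hochberg = 1.02e-07). All folds here are ratios of FPKM + 0.1, which understates those of low genes. Ephb1 gave 26.1% ± 0.718 (SD, n = 3) of the receptor sum, so that Ephb2 and Ephb1 lead a family in which the other 3 receptors are minor by level.

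Ephb6 is the member whose kinase domain has lost catalytic activity. It had 8.74, 10.23 and 9.8 FPKM in libraries 1, 2 and 3, a mean of 9.59 ± 0.767 FPKM (SD, n = 3), and was lowest in library 1. Its share of the receptor sum was 12.9% ± 1.04 (SD, n = 3). Ephb6 was therefore the third receptor by level, ahead of 2 receptors that have an active kinase. Ephb1 exceeded it by 2.02-fold (95% interval 1.76 to 2.32, 3 of 3 libraries; adjusted p by limma with Benjamini-Hochberg = 1.89e-08).

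Ephb3, which acts with Ephb2 in the formation of the corpus callosum, had 5.04, 5.19 and 5.56 FPKM in libraries 1, 2 and 3. All values lay well under those of Ephb6, which exceeded Ephb3 by 1.80-fold (95% interval 1.55 to 2.10, 3 of 3 libraries; adjusted p by limma with Benjamini-Hochberg = 2.78e-09). Ephb4 had 2.24, 2.82 and 2.56 FPKM and was highest in library 2. Its highest library was still below the lowest of Ephb3, and Ephb3 exceeded it by 2.04-fold (95% interval 1.70 to 2.45, 3 of 3 libraries). Ephb4 varied most of the 8 genes on the log2 scale (SD 0.16), where 64.3% of the entries with a mean of at least 1 FPKM varied less. The smallest and largest members of the receptor family were 14.4-fold apart (95% interval 12.0 to 17.3).

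Because Ephb4 is known from vessels, as is the ligand Efnb2 from arteries, endothelial markers were read beside them. None of the 8 endothelial markers passed limma's test against 1 FPKM, beside 63.7% of all entries. Their summed level was 0.53 to 0.71 FPKM per library. Pecam1, the highest, had 0.253 ± 0.0551 FPKM (SD, n = 3), and Cdh5, Emcn and Flt1 were at or under 0.05 FPKM in every library. The unknown depth limits such low values. Which cells carried Ephb4 and Efnb2 was not tested.

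The 10 pairs of receptors all differed in the two-sided limma test, in which the ratio of a member to every other tested entry was fitted and p-values were adjusted over all 140852 rows of these fits. The test separates nearly any pair of genes in this table: 95.1% of all rows passed (96.8% of entries differed from Efnb3, 96.0% from Ephb2, 96.0% from Efnb2, 95.9% from Efnb1, 93.9% from Ephb1, 93.5% from Ephb6, 94.4% from Ephb3 and 94.4% from Ephb4), and 95.1% had libraries that did not overlap, so the result about the receptors is their order and spacing rather than the count. With a plain variance prior the 10 pairs still passed (largest Benjamini-Hochberg adjusted p = 0.000461, limma), and they passed against a margin of 1.5-fold, as 83.3% of all rows did. An exact sign-flip test on 3 libraries cannot go below p = 0.25, which is why limma's model across entries was used. The order Ephb2, Ephb1, Ephb6, Ephb3, Ephb4 was the same in each of the 3 libraries.

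The sequence before the gene start was read for the receptors at both ends of this order, to show what kind of promoter each has. The sequences are from RefSeq (rat assembly GRCr8, which is not the build rn6 named for the expression data) and hold the 250 bases before the annotated start, 5′ to 3′ on the strand of the gene, with CG dinucleotides in capitals. Ephb2 lies on the minus strand, with its window at chr5:154360425-154360674, and Ephb4 on the minus strand, with its window at chr12:24988389-24988638.
Ephb2: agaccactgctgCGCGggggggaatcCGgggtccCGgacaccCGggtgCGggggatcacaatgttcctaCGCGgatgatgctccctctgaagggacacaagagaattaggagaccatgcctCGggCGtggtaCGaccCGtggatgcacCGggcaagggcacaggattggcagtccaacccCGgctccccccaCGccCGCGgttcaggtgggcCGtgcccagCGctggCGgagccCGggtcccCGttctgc
Ephb4: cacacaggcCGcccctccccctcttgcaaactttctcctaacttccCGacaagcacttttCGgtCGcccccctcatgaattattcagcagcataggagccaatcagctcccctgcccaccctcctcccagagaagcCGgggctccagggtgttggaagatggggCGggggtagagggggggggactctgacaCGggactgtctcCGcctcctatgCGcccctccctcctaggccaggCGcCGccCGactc

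Both windows hold more CG than the median window. Ephb2 has more than 86.3% of all windows and Ephb4 more than 68.5%. Ephb2 has 22 CG dinucleotides and Ephb4 has 12, against a median of 5 in 33469 RefSeq promoter windows of the same length and 8 in the 21842 windows of protein-coding genes. All 7 members with a window in the table lie above both medians, from 12 in Ephb4 to 43 in Efnb2, the ligand on chromosome 16, whose window has more CG than 99.3% of all windows. The motif TATAAA (searched on both strands) occurs in none of the 7 windows and in 12.9% of all windows. CCAAT, searched on both strands, occurs in 6 of the 7, all except Ephb6, and in 34.0% of all windows (35.0% of those of protein-coding genes). These matches are letters in a window and not measured sites.

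The 3 ligands were closer to each other than the receptors were. Efnb3 is known as a midline barrier to axons in the spinal cord. It had 39.53, 46.77 and 43.45 FPKM in libraries 1, 2 and 3, and was lowest in library 1. Efnb2, known from arteries and from the optic chiasm, had 37.17, 37.15 and 34.12 FPKM, a mean of 36.1 ± 1.76 FPKM (SD, n = 3). Every library of Efnb3 was above every library of Efnb2, though the closest values were 39.5 and 37.2 FPKM. The mean excess was 1.19-fold (95% interval 1.07 to 1.33, 3 of 3 libraries; adjusted p by limma with Benjamini-Hochberg = 0.00474). This call was lost without library 3 (adjusted p = 0.0713, limma) and with a plain prior (adjusted p = 0.0509, limma), and over all alternatives other than a required margin the adjusted p ranged from 0.000441 to 0.0713.

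Efnb1, an X-linked gene known for cell sorting and expression in neural progenitors, was the lowest ligand. It had 24.32, 27.35 and 25.39 FPKM in libraries 1, 2 and 3, a mean of 25.7 ± 1.54 FPKM (SD, n = 3), and none of its libraries reached the lowest of Efnb2. Efnb2 exceeded it by 1.41-fold (95% interval 1.25 to 1.58, 3 of 3 libraries; adjusted p by limma with Benjamini-Hochberg = 6.89e-06), and Efnb3 exceeded it by 1.68-fold (95% interval 1.52 to 1.86, 3 of 3 libraries). Of the summed ephrin-B FPKM, Efnb3 made up 41.1% ± 1.73 (SD, n = 3), Efnb2 34.4% ± 2.04 and Efnb1 24.4% ± 0.317.

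Across both families the order of the means was Efnb3, Ephb2, Efnb2, Efnb1, Ephb1, Ephb6, Ephb3 and Ephb4. Each of the 28 pairs had the same order in all 3 libraries. Such a fixed order is common in this table, since libraries did not overlap in 95.1% of all rows. Of the 28 pairs, 27 passed limma's test, beside 95.1% of all rows. The exception was Ephb2 and Efnb2, whose libraries overlapped: Ephb2 was higher by 1.05-fold (95% interval 0.931 to 1.17; adjusted p by limma with Benjamini-Hochberg = 0.422). Efnb3 exceeded Ephb2 by 1.14-fold (95% interval 1.02 to 1.27, 3 of 3 libraries; adjusted p by limma with Benjamini-Hochberg = 0.0229), but in library 1 the values were only 39.53 and 38.75 FPKM. That call was lost without library 2 (adjusted p = 0.187, limma), without library 3 (adjusted p = 0.142) and with a plain prior (adjusted p = 0.109), in a range of 0.0073 to 0.187 over the alternatives other than a required margin. At the top of the order, the 3 pairs among Efnb3, Ephb2 and Efnb2 were thus either not separated or separated only in some of the fits. Against a margin of 1.5-fold, 22 of the 28 pairs passed, beside 83.3% of all rows.

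**Figure D2:**
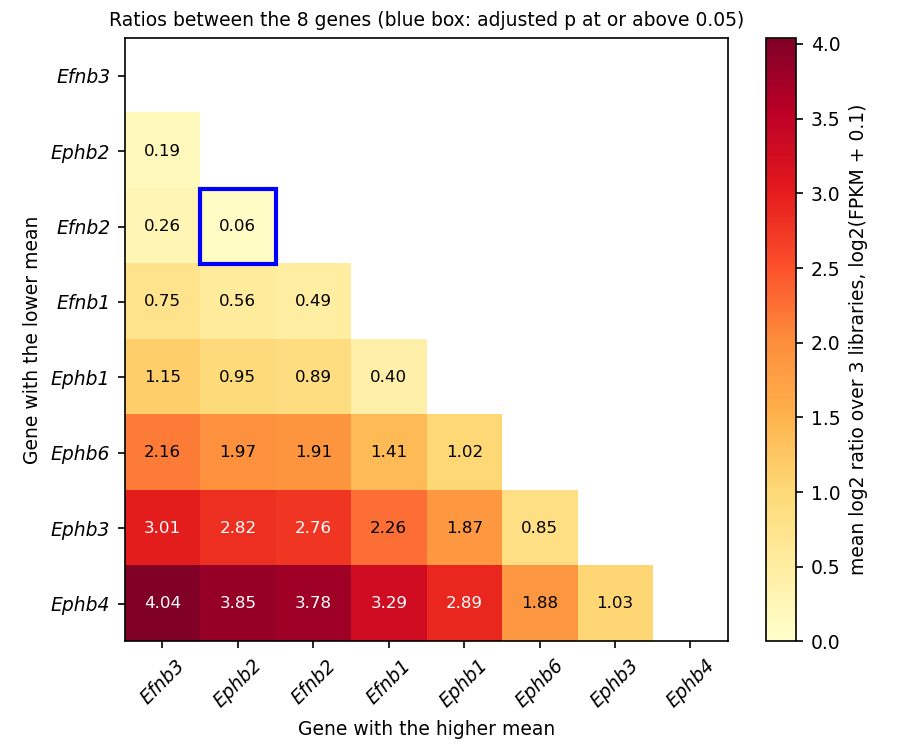
Mean log2 ratio over the 3 libraries, on the log2(FPKM + 0.1) scale, of the gene on the horizontal axis to the gene on the vertical axis, with genes in the order of their means. Ratios grow from 0.06 between Ephb2 and Efnb2, the pair in the blue box that did not pass limma's test, to 4.04 between Efnb3 and Ephb4.

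In sum over members, the ligands outweighed the receptors. The 5 EphB receptors summed to 74.9, 75.0 and 73.9 FPKM in libraries 1, 2 and 3, and the 3 ligands to 101, 111 and 103 FPKM. As deposited, the receptor sum was nearly level and the ligand sum was highest in library 2, where the median entry was also higher by 0.13 on the log2 scale. After subtraction of that shift, the median library 2 difference was -0.14 over the receptors and 0.01 over the ligands. The ratio of receptor to ligand sum was 0.711 ± 0.0342 (SD, n = 3), below 1 in all 3 libraries, and 0.730 without library 2. The sums are given as a description, and no test was run on them.

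The related EphA receptors and ephrin-A ligands were read for comparison. The 9 EphA receptors summed to 39.0 to 42.1 FPKM per library, so the EphB sum was 1.84 ± 0.0826 times the EphA sum (SD, n = 3), and the ephrin-B sum was 1.37 ± 0.0115 times that of the 5 ephrin-A ligands (SD, n = 3). Of the EphA receptors 5 of 9 lay above 1 FPKM in limma's test, and of the ephrin-A ligands 4 of 5, beside 63.7% of all entries. The leading EphA receptors were Epha4 at 11.6 ± 0.0569 FPKM and Epha3 at 10.5 ± 0.253 FPKM (SD, n = 3), followed by Epha7 at 7.41 ± 0.389 FPKM, and the lowest was Epha1 at 0.02, 0.05 and 0.05 FPKM. Ephb2 exceeded Epha4 by 3.24-fold (95% interval 2.88 to 3.65, 3 of 3 libraries; adjusted p by limma with Benjamini-Hochberg = 5.03e-10). Ephb2 and Ephb1 were each higher than all 9 EphA receptors in this test, where 96.0% and 93.9% of all entries differed from them in either direction. By mean level, 87.6% of the tested entries lay below Ephb2 and 76.6% below Ephb1. Ephb6 did not differ past the threshold from Epha3 (0.913-fold, 95% interval 0.803 to 1.04; adjusted p by limma with Benjamini-Hochberg = 0.162). Ephb6 was lower than Epha4 (0.828-fold, 95% interval 0.729 to 0.940; adjusted p by limma with Benjamini-Hochberg = 0.00503), which no longer held without library 1 (adjusted p = 0.0611, limma; range over the alternatives other than a margin 0.00303 to 0.0611). Ephb3 and Ephb4 were each lower than 4 of the 9 EphA receptors and higher than 5, where 94.4% of all entries differed from each.

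Among the ligands, Efna3 came closest to the ephrin-B genes, with 27.79, 33.70 and 33.04 FPKM in libraries 1, 2 and 3. Efnb3 exceeded it by 1.37-fold (95% interval 1.24 to 1.52, 3 of 3 libraries; adjusted p by limma with Benjamini-Hochberg = 2.42e-05), and Efnb1 was lower than Efna3 in all 3 libraries (0.818-fold, 95% interval 0.747 to 0.895). The other ephrin-A ligands were Efna5 at 22.4 ± 2.07, Efna2 at 16.4 ± 1.09, Efna4 at 6.02 ± 0.527 and Efna1 at 0.133 ± 0.0208 FPKM (SD, n = 3). Efnb2 exceeded Efna3 by 1.15-fold (adjusted p by limma with Benjamini-Hochberg = 0.0299). This call was lost without library 1 (adjusted p = 0.253, limma) and with a plain prior. Over the alternatives other than a margin, limma's adjusted p ranged from 0.0158 to 0.253. Efnb1 was higher than Efna5 by 1.15-fold on average, but in only 2 of 3 libraries (adjusted p by limma with Benjamini-Hochberg = 0.0379). It did not pass the threshold without library 3 (adjusted p = 0.211, limma) or with a plain prior. The range of limma's adjusted p over the same alternatives was 0.00184 to 0.211.

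**Figure D3:**
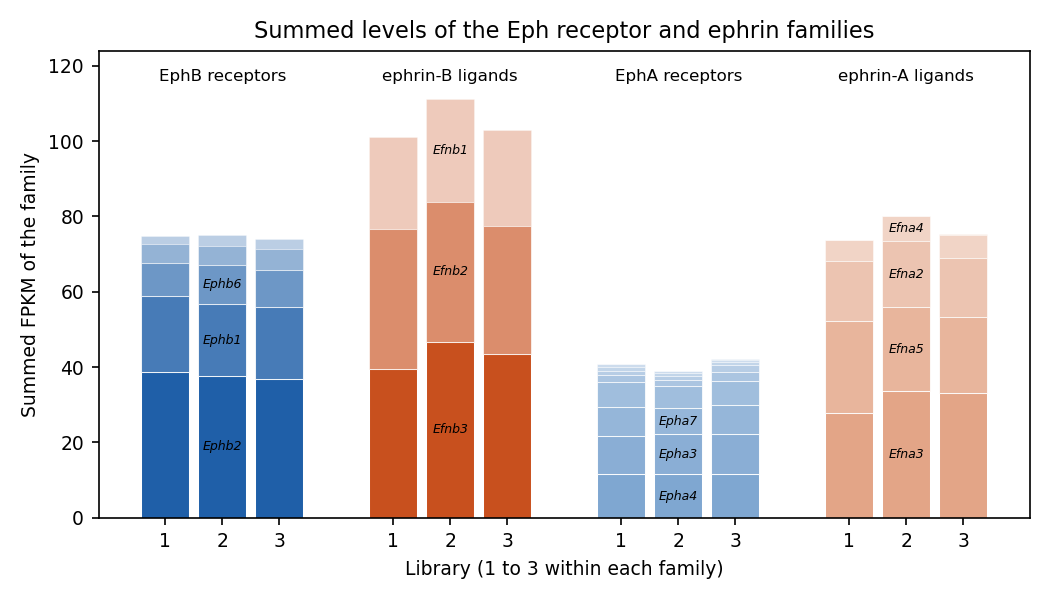
Summed FPKM of each family in libraries 1, 2 and 3, with each bar divided by gene from the highest at the bottom to the lowest at the top; segments over 6 FPKM in library 2 are named. EphB receptors reach 73.9 to 75.0 FPKM, with Ephb2 as the lowest and tallest segment, and the ephrin-B ligands 101 to 111 FPKM.

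Genes through which EphB receptors are known to signal forward were read from 3 lists. Of 7 exchange factors, which load small GTPases with GTP, 5 lay above 1 FPKM in limma's test, beside 63.7% of all entries. Vav2 had 31.5 ± 0.251, Itsn1, which Ephb2 is known to bind, 28.1 ± 1.79 and Vav3 21.2 ± 0.857 FPKM (SD, n = 3). The lowest, Arhgef15, had 0.0533 ± 0.0321 FPKM. Of 15 adaptors and cytoplasmic kinases 14 passed, led by the Src family kinase Fyn at 121 ± 8.0 FPKM and the adaptors Grb2 at 71.8 ± 6.15 and Grb10 at 57.7 ± 4.82 FPKM, and Dok1 was lowest at 0.140 ± 0.0781 FPKM. All 9 small GTPases and effectors passed, from Cdc42 at 283 ± 27.5, Rac1 at 133 ± 14.5 and Rhoa at 129 ± 10.3 FPKM down to the chimaerin Chn2, which inactivates Rac, at 6.76 ± 0.526 FPKM. The median of the list means was 13.3 FPKM for exchange factors, 25.9 for adaptors and kinases and 54.7 for GTPases and effectors, against 4.81 FPKM over all tested entries.

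Reverse signalling runs through partners of the ephrin-B tail. All 13 on the list lay above 1 FPKM in limma's test, beside 63.7% of all entries, and 2 of them with the sum of 1000000 over all entries. The highest were PDZ proteins: Sdcbp (syntenin) at 138 ± 9.02, Gipc1 at 40.1 ± 4.19 and Grip1 at 22.6 ± 0.900 FPKM (SD, n = 3). Zhx2 was the lowest at 1.89 ± 0.200 FPKM. The list median was 11.5 FPKM.

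Genes that end or cut Eph signalling formed the next lists. Of 10 proteases 8 passed limma's test against 1 FPKM, led by 3 subunits of the gamma-secretase that cuts ephrin-B within the membrane: Psenen at 72.2 ± 6.89, Aph1a at 34.4 ± 2.96 and Ncstn at 33.9 ± 3.05 FPKM (SD, n = 3). Rhbdl2, a rhomboid protease, was listed at 0 in each library. All 8 phosphatases and ubiquitin ligases passed, with Acp1 at 44.0 ± 6.69, Ptpn11 at 36.6 ± 2.39 and Ptprf at 26.3 ± 1.72 FPKM highest and Ptprj at 5.42 ± 0.344 FPKM lowest. Of 5 synaptic partners of EphB receptors 4 passed: the AMPA receptor subunit Gria2 had 23.3 ± 4.02, the NMDA receptor subunit Grin1 8.18 ± 0.245 and the syndecan Sdc2 4.75 ± 0.070 FPKM, while Grin2a had 0.507 ± 0.0902 FPKM. Over the 9 lists that exclude the members, 70 of 81 genes lay above 1 FPKM, beside 63.7% of all entries, and 17 did with each library scaled to a sum of 1000000 over all entries.

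**Figure D4:**
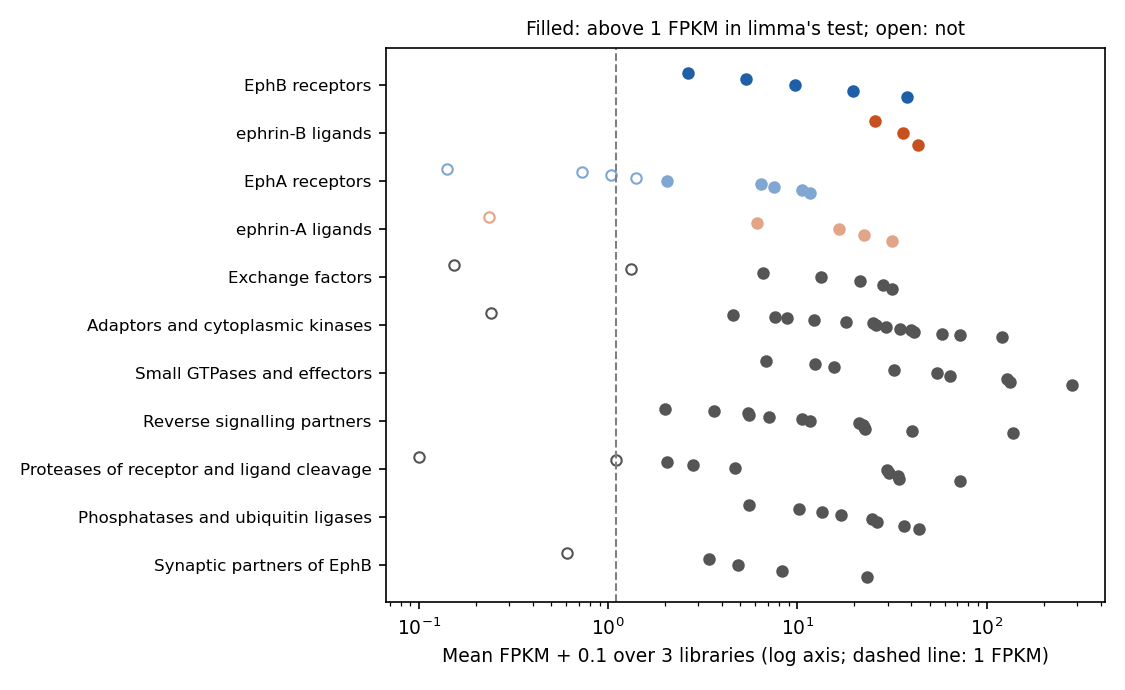
Mean FPKM + 0.1 over the 3 libraries of every gene on the pathway lists, on a log axis; filled points lay above 1 FPKM in limma's test and open points did not. All 8 members are filled, as are all 9 small GTPases and effectors and all 13 reverse signalling partners, while 4 of 9 EphA receptors are open. Of all tested entries 63.7% passed the same test on the values as deposited.

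The spread of the members between libraries was small. For 7 of the 8 the SD of log2(FPKM + 0.1), as deposited and not centred, was below 0.13. That was the median over the 11662 entries with a mean of at least 1 FPKM. The highest and lowest library of a member differed by at most 1.26-fold. Library 2 was compared with the mean of the other 2 libraries, after subtraction of the median difference over these entries (0.13 on the log2 scale). The difference was -0.14 for Ephb2, -0.16 for Ephb1 and -0.16 for Ephb3, and 0.10 for Ephb4, 0.04 for Efnb3 and 0.01 for both Ephb6 and Efnb1. It was -0.07 for Efnb2, so 4 members lay above and 4 below the median entry. Among the commissural axon markers it was -0.80 for Robo3, -0.67 for Dcc and -0.57 for Cntn2, while Boc, at -0.07, lay within the range of the members, and the median over the 9 EphA receptors was -0.28. With 1 library against 2 there is no test, and what sets library 2 apart was not tested.

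**Figure D5:**
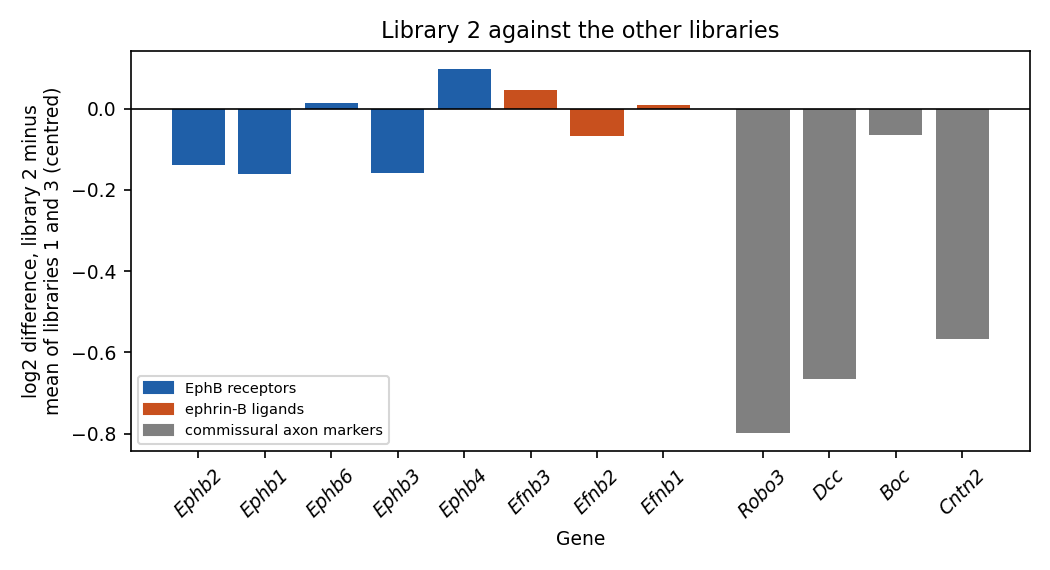
Difference between library 2 and the mean of libraries 1 and 3 on the log2(FPKM + 0.1) scale, after subtraction of the median over entries with a mean of at least 1 FPKM, for the 8 members (coloured) and the 4 commissural axon markers (grey). Members lie between -0.16 and 0.10, Robo3, Dcc and Cntn2 between -0.80 and -0.57, and Boc at -0.07.

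Other cells that could carry these genes were read from their markers. For the floor plate, where Efnb3 is known to be expressed, 2 of 4 markers passed limma's test against 1 FPKM, beside 63.7% of all entries. These were Ntn1, the highest at 18.5 ± 1.59 FPKM (SD, n = 3), and Spon1 at 1.37 ± 0.208 FPKM. Foxa2 was listed at 0 in each library and Shh had 0.09, 0.15 and 0.06 FPKM. The progenitor list summed to 955 to 1211 FPKM per library, led by Fabp7 at 564 ± 106 FPKM. As deposited, this sum was highest in library 2, as were Efnb3, Efnb1, Ephb6 and Ephb4, but not Ephb2, Ephb1, Ephb3 and Efnb2. After subtraction of the shift of the median entry, the median library 2 difference of the list was 0.08, with 6 of 8 genes above 0 and Slc1a3 at -0.08. The proliferation list summed to 110 to 130 FPKM with Pcna at 69.4 ± 7.49 FPKM as its highest gene. Its centred median library 2 difference was 0.02, with 3 of 5 genes above 0 and Mki67 at -0.40. The part of these cells in the levels of the members was not tested. Macrophage markers passed in 2 of 5 cases and summed to 7.88 to 12.5 FPKM, with Aif1 highest at 6.76 ± 1.47 FPKM. Fibroblast and mural markers passed in 1 of 6, Col3a1 at 2.27 ± 0.512 FPKM, with Dcn and Rgs5 listed at 0. Of the neural crest and Schwann list 2 of 5 passed, with Foxd3, which dorsal spinal neurons also express, highest at 13.6 ± 0.760 FPKM and Sox10 at 0, 0.03 and 0 FPKM.

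Genes with nearly the same 3 values were sought for the leading member of each family, by the root mean square difference of log2(FPKM + 0.1) over the 3 libraries. For Ephb2 the nearest were Ddx42 (0.0238), Fxr1 (0.0242) and Zmym2 (0.0244), with means of 37.6, 37.4 and 37.5 FPKM. For Efnb3 they were Flywch1 (0.0144) and Ergic1 (0.0249), both with a mean of 43.0 FPKM. With 1 condition and 3 libraries this likeness is mainly one of level.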

How the data were processed

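RNA of 3 libraries was analysed from 1 table of FPKM values that the authors deposited, with 2 decimals and a column per library. Per the labels' protocols, libraries were stranded and read as pairs of 50 bp. STAR, Trimmomatic 0.22, FastQC and the build rn6 come from the submitters' processing notes. How FPKM was computed, with which annotation, with or without strand and with which treatment of multiply mapped reads, is not given in the sources used here. Depth is not known from FPKM, so no counting intervals are given.

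Members were matched by symbol, ignoring case. Log2(FPKM + 0.1) values were fitted with limma 3.58.1 (R 4.3.3, statmod 1.5.0) with trended, robust variance priors, against 1 FPKM (one-sided) and as ratios to each member within libraries (two-sided), with Benjamini-Hochberg adjustment over all rows at 0.05. Both were tested on simulated data. The ratio fits have 3 libraries and lean on the prior, so very small p-values depend on it. The members and lists were chosen with earlier results of these data known, and the lists are not independent evidence. Named were all members, the 3 highest and the lowest gene of each other list, the highest and near-0 genes (at or under 0.05 FPKM) of each marker list, the commissural list, and the 3 nearest entries of the leading receptor and ligand, of which 1 is not reported here; Shh, Efna4, Ptpro and Grin2b lie outside this rule and were picked with their values known. Where a symbol had 2 entries (Epha10 and Rgs3), the higher was used. Alternatives were other pseudocounts, scalings, filters, levels, a plain prior, a margin and each library left out; those for ratios to EphA and ephrin-A genes were added after the data were seen. A planned comparison of protein sequences was not run. Python 3.11.15 (pandas 2.3.3, matplotlib 3.10.9) served for tables and figures.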

Additional observations from a re-analysis of the deposited data

How the results depend on the processing

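The FPKM scale decides what lies above 1 FPKM, because 62 entries above 10000 FPKM hold most of the summed values. With each library scaled to a sum of 1000000 over all entries, 3 members and 17 of the 81 other pathway genes passed, and the log2 level against 1 turned to -0.25 for Ephb1, -1.12 for Ephb6, -1.76 for Ephb3 and -2.40 for Ephb4. With the sum taken over entries at or under 10000 FPKM, 8 members and 74 pathway genes passed. Against 5 FPKM 6 members passed, and the log2 level was -0.96 for Ephb4. Without centring, the median library 2 difference of the members turned from -0.03 to 0.10. Of the 28 pairs, 26 kept their call and direction in every alternative other than the margin of 1.5-fold, and 25 to 27 passed with a library left out. No paired analysis was possible because all libraries form 1 group; ratios were taken within each library. The unknown depth limits low values such as those of the endothelial markers.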

Other observations

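Ptpro, a receptor phosphatase known to act on Eph receptors, had 17.46, 23.09 and 10.24 FPKM in libraries 1, 2 and 3, while the highest and lowest library of an EphB receptor or ephrin-B ligand differed by at most 1.26-fold. Grin2b, an NMDA receptor subunit, had 4.18, 1.97 and 3.75 FPKM and was lowest in library 2. Both were chosen after their values were seen.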
